A study of Homo sapiens with 8 samples.

Results

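The plasma membrane carriers of amino acids were followed in MDA-MB-231 cells after knockdown of ESRRA. ESRRA encodes ERRα (estrogen-related receptor α), an orphan nuclear receptor known for its control of mitochondrial energy genes. The carriers were taken by name, as every symbol of the count table that begins with SLC1A, SLC3A, SLC6A, SLC7A, SLC36A, SLC38A or SLC43A and goes on with a digit, which gave 63 of 23368 symbols. MDA-MB-231, a long-established line from a human triple-negative breast cancer, was grown in DMEM with fetal calf serum. The groups were cells transfected with siE1, siE2 or siE3, which are 3 different siRNAs against ESRRA, and cells transfected with the control siRNA siC. Each group had 2 RNA-seq libraries, 8 in all, and all values are of bulk RNA, in which a change within each cell and a change in how many cells express a gene cannot be told apart. All cells, the controls included, had gone through transfection with INTERFERin, and the labels give no time of harvest and no untransfected cells.

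Amino acids cross the plasma membrane through carriers of several families that divide the work. SLC7 light chains pair with an SLC3 heavy chain, which brings them to the cell surface, and exchange 1 amino acid for another, whereas the SLC38 and SLC6 families use the sodium gradient to accumulate their substrates. Cancer cells in culture are known for their use of LAT1 (SLC7A5 with SLC3A2) for leucine and other large neutral amino acids, xCT (SLC7A11 with SLC3A2) for cystine, and ASCT2 (SLC1A5) for glutamine. Supply through these carriers feeds protein synthesis and the nutrient-sensing kinase complex mTORC1, and several of them are known targets of the transcription factor ATF4 when amino acids run short.

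Total counts ran between 21835995 and 25880548 a library, of which the 63 symbols took 0.329% to 0.378%. ESRRA had 228 and 271 counts in the siE1 libraries, 205 and 168 in the siE2 libraries and 187 and 192 in the siE3 libraries, against 1379 and 1512 in the siC libraries, so that every knockdown library lay far under both controls. In the edgeR quasi-likelihood test the log2 fold change of ESRRA was -2.62 for siE1, -2.99 for siE2 and -2.92 for siE3 (adjusted p of 7.2e-12, 6e-12 and 4.9e-12). Of the markers of this line, VIM stood at 3165 to 4058 CPM (counts scaled to library size and TMM factor) and CD44 at 604 to 828 CPM, ESR1 at 0.0456 CPM or less, and PGR at 0 in every library. In the marker list drawn up here SPARC was entered as high, and ERBB2 and EPCAM as low or absent. SPARC stood at 5.35 to 16.6 CPM, ERBB2 at 52.0 to 67.1 CPM and EPCAM at 9.11 to 12.7 CPM, and no other line was measured for comparison. Of the luminal genes, KRT18 stood at 217 to 272 CPM, GATA3 at 2.57 to 4.32 CPM and FOXA1 at 2.77 to 6.67 CPM. Among neural genes TUBB3 stood at 80.3 to 193 CPM, and GFAP, SLC17A7 and SYP at 1.54 CPM or less. Among fibroblast genes COL1A1 stood at 4.11 to 9.95 CPM and PDGFRB at 0.776 to 4.36 CPM, with COL1A2 and DCN at 0.13 CPM or less. The blood and endothelial genes stayed at 2.98 CPM or less. Whether both libraries of a group stem from cultures of their own is not said in the labels, so each p-value is set against library-to-library spread alone, and that spread can be technical.

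Of the 63 symbols, 29 had enough counts to be tested. Another 16 had no count in any library, which leaves room for up to 3 counts in each, and 18 had counts too low for the filter, with a highest value of 13 counts (SLC6A13, in the first siE1 library). By role, the tested members were 4 of 8 SLC7 light chains, 1 of 2 heavy chains, both neutral amino acid exchangers of the SLC1 family, 2 of 5 glutamate carriers, 2 of 5 cationic amino acid carriers, 7 of 11 SLC38 carriers, 2 of 4 SLC36 carriers and all 3 SLC43 carriers. SLC6 gave 2 of 10 amino acid carriers and 2 of 6 carriers of GABA, taurine, creatine or betaine, and none of the 3 monoamine carriers was tested. The name rule also took 4 symbols that are no carriers, the pseudogenes SLC7A5P1, SLC7A5P2 and SLC6A10P and the gene SLC7A6OS, of which SLC7A5P2 and SLC7A6OS were tested.

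Promoter windows are shown for the 3 carriers that were higher with each of the 3 siRNAs and for both chains of LAT1, which were lower with siE3. Each runs from 250 bases before to 50 bases after the gene's start, 5′ to 3′ on the gene's strand, from RefSeq on GRCh38.p14. They lie at chr12:46825948-46826247 (minus strand) for SLC38A4, chr14:60980995-60981294 (plus) for SLC38A6, chr1:44031413-44031712 (minus) for SLC6A9, chr16:87869458-87869757 (minus) for SLC7A5 and chr11:62881449-62881748 (plus) for SLC3A2. Capitals mark the E-box CACGTG, whose first base in SLC7A5 is at -130 from the start, and the match to TGATGNAA (the core of the sites that ATF4 shares with C/EBP factors), which in SLC3A2 reads TTACATCA on the printed strand from +38. The windows without capitals hold none of the 4 motifs searched.
SLC38A4: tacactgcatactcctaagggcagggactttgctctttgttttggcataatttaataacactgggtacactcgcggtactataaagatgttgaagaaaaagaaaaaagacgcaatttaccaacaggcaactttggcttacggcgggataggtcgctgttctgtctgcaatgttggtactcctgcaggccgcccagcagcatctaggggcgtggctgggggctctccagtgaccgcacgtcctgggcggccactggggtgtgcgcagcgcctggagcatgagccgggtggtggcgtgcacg
SLC38A6: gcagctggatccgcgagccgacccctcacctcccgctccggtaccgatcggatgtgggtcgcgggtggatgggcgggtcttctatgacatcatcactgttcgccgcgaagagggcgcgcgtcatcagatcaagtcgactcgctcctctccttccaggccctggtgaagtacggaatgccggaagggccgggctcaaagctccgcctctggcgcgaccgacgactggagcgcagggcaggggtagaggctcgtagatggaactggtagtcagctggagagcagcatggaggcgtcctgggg
SLC6A9: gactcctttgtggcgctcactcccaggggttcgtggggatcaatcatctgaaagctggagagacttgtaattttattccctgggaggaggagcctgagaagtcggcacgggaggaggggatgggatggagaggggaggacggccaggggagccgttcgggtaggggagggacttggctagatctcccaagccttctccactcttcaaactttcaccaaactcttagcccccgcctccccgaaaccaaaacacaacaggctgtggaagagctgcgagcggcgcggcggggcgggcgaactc
SLC7A5: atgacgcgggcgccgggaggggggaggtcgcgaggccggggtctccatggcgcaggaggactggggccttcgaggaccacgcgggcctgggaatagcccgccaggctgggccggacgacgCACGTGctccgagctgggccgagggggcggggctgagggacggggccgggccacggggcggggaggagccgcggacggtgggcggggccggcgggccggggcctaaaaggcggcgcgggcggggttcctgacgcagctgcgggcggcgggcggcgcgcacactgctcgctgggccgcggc
SLC3A2: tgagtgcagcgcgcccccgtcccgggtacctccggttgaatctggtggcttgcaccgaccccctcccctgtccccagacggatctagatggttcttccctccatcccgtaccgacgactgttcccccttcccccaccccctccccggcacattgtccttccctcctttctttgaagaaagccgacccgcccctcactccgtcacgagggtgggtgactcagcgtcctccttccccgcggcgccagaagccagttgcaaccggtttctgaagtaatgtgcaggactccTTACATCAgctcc

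Each motif was searched on both strands in the windows of the 24 tested members that matched RefSeq and in all 27305 windows of the table. No entry was matched for SLC43A3, SLC6A6, SLC7A11, SLC7A2 and SLC7A5P2. The extended element bound by ERR receptors, TCAAGGTCA, was in 0 of the 24 member windows and in 0.359% of all windows. Its shorter core AAGGTCA, which every TCAAGGTCA contains, was in 0 of 24 and in 3.97% of all. TGATGNAA was in 4 of 24 member windows (SLC1A3, SLC38A1, SLC3A2 and SLC7A1) against 3.67% of all windows, and CACGTG in 3 of 24 (SLC38A7, SLC43A1 and SLC7A5) against 7.43%. These counts describe the letters of short windows only.

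Per length, carriers of glutamine, leucine and other neutral amino acids were among the highest members in control cells. With siC the highest level was that of SLC38A2 (SNAT2, a sodium-coupled carrier of small neutral amino acids), at a mean of 105.6 CPM per kb of exon. SLC43A3, a carrier of purine bases, SLC7A5 and SLC1A5 followed at 95.3, 90.0 and 89.8 CPM per kb. The siC libraries of SLC7A5 (85.3 to 94.8) overlapped those of SLC43A3 (93.9 to 96.8) and of SLC1A5 (86.9 to 92.8), so the order of these 3 is not resolved. At the other end were SLC6A14 at 0.254 and SLC7A7 at 0.0989 CPM per kb. SLC1A5 averaged 110 CPM per kb with siE1, in the range of SLC38A2 there (100.1 to 111), and 60.3 with siE2. SLC7A5 averaged 78.3 with siE2, in a range (71.8 to 84.7) that overlapped that of SLC43A3, and 51.5 with siE3, in a range that overlapped that of SLC3A2. Lengths are merged exons of GENCODE v29, not the annotation the authors counted on, so that these levels are approximate.

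**Figure D1:**
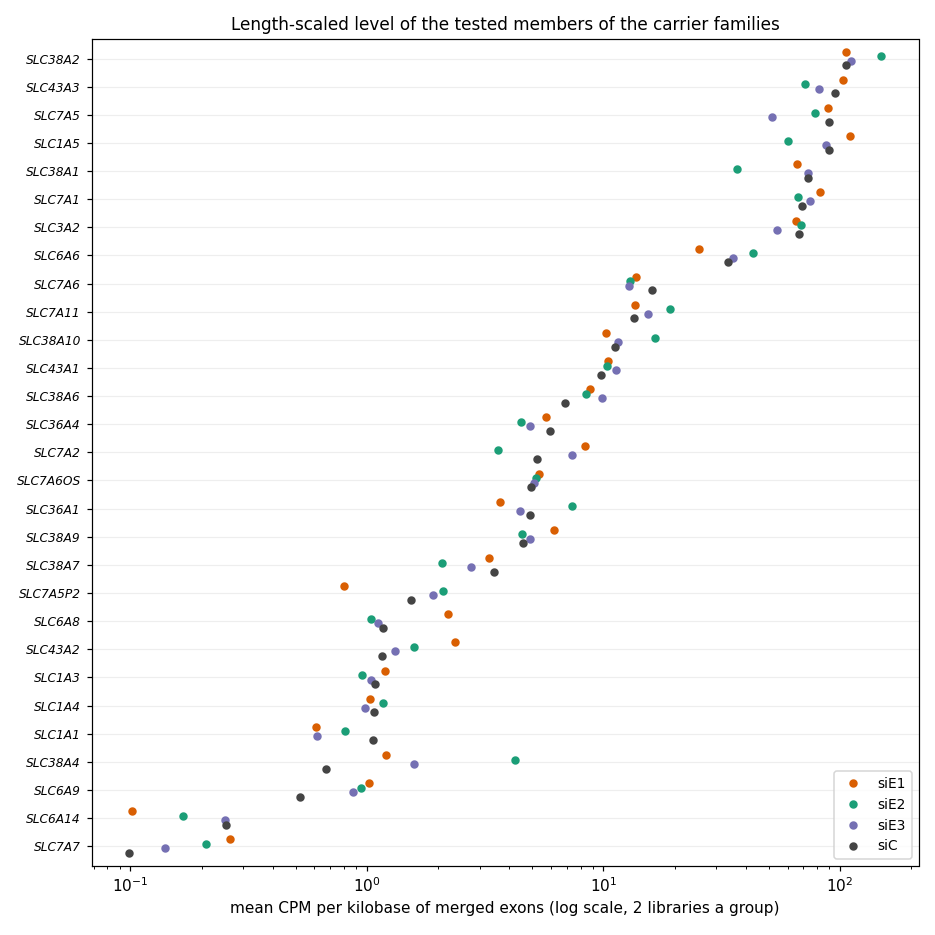
Mean CPM per kb of exon (log axis) of the tested members in siE1, siE2, siE3 and siC cells, ordered by the level in siC. SLC38A2 leads in siC at 105.6 CPM per kb, and SLC7A7 is lowest there at 0.0989.

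By adjusted p alone, the members were called with each siRNA at about the rate of all genes. With an adjusted p under 0.05 (edgeR, adjusted over 13395 genes), 16 of the 29 tested members were called with siE1, 10 higher and 6 lower, where 50.3% of all genes were called (24.5% higher and 25.8% lower). With siE2 there were 17, 10 higher and 7 lower, against 56.4% of all genes (27.9% higher and 28.5% lower). With siE3 there were 11, 4 higher and 7 lower, against 42.1% (21.3% higher and 20.8% lower). In the average of the 3 siRNAs 18 members were called, 9 in each direction, against 51.1% of genes (23.4% higher and 27.7% lower). The higher members with siE1, with siE2 and in the average include SLC7A7, which passed the filter on low counts through siE1 and siE2. The median log2 fold change of the members was 0.01, 0.02 and 0.03 with siE1, siE2 and siE3, and that of all tested genes was -0.01, 0.01 and -0.00. These 3 comparisons share the same 2 siC libraries.

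**Figure D2:**
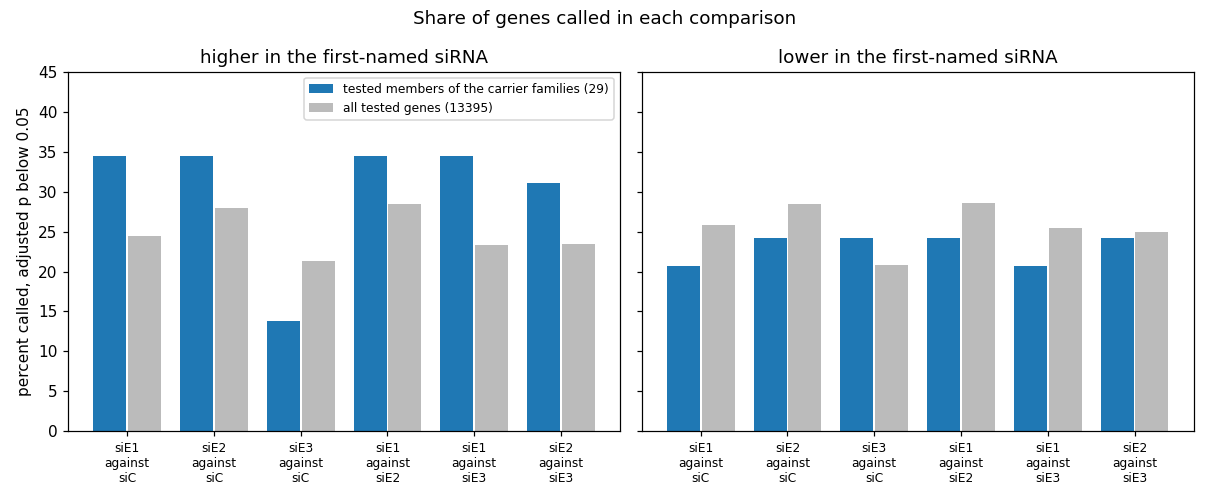
Share (%) of genes called higher (left) and lower (right) by edgeR at an adjusted p under 0.05 in 6 comparisons, for the 29 tested members and for all 13395 tested genes. With siE1 34.5% of the members and 24.5% of all genes were higher.

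Members fell into a few patterns over the 3 siRNAs. Called higher with each siRNA were 3 members, SLC38A4, SLC38A6 and SLC6A9 (8.73% of all genes), and called lower with each was 1, SLC7A6 (7.42%). Another 4, SLC1A5, SLC36A1, SLC6A6 and SLC7A2, were called higher with 1 siRNA and lower with another (10.7%). Of the rest, 8 were called higher with 1 or 2 siRNAs (23.9% of all genes) and 8 lower (28%), and 5 (SLC1A3, SLC1A4, SLC43A1, SLC7A5P2 and SLC7A6OS) were called with none (21.2%).

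The SLC38 family of sodium-coupled neutral amino acid carriers held the largest rise with siE2. SLC38A4 (SNAT4), known mainly from liver and placenta, stood at 3.89 and 5.67 CPM with siE1, 17.4 and 16.2 CPM with siE2, and 5.85 and 6.71 CPM with siE3, against 3.01 and 2.31 CPM with siC. All 6 knockdown libraries lay above both controls, with siE2 far above the rest. On the log2 scale it rose by 0.86 (SE 0.202, edgeR adjusted p = 0.0023) with siE1, by 2.66 (SE 0.170, adjusted p = 5e-09) with siE2 and by 1.24 (SE 0.195, adjusted p = 0.00011) with siE3. The rise with siE2 exceeded that with siE1 and that with siE3 (siE1 over siE2 -1.80, edgeR adjusted p = 8.8e-08, and siE2 over siE3 1.42, adjusted p = 1.3e-06). Without the second siE1 library the siE1 value was 0.55 with an adjusted p of 0.066, so that this call rests on that library.

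SLC38A6, a less studied member of the family, changed less and more evenly. Its level was 17.4 and 17.9 CPM with siE1, 16.6 and 17.3 CPM with siE2, and 20.02 and 19.7 CPM with siE3, against 13.2 and 14.4 CPM with siC. No knockdown library fell into the range of the controls. The log2 changes were 0.35, 0.29 and 0.52 (SE 0.0888, 0.0896 and 0.0882, edgeR adjusted p of 0.0041, 0.012 and 0.00022). The siE2 call was lost without the first siC library (adjusted p = 0.1), without the second siE2 library (0.073) and in DESeq2 (0.051). TRMT5 covers 12.2% of its exon bases on the other strand, and which strand the authors counted is not known from the sources used here.

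SLC38A2 and SLC38A1, the abundant glutamine and small neutral amino acid carriers of the family, moved in opposite directions with siE2. SLC38A2 stood at 556 and 501 CPM with siE1, 807 and 684 CPM with siE2, and 514 and 595 CPM with siE3, against 517 and 540.6 CPM with siC. Only siE2 lay clear of the controls in both libraries and in the test (log2 0.50, SE 0.0755, edgeR adjusted p = 4.6e-05), with -0.00 for siE1 and 0.07 for siE3 (adjusted p of 1.0 and 0.49). For SLC38A1 the levels were 620.4 and 602 CPM with siE1, 341.5 and 346 CPM with siE2, and 652 and 720.0 CPM with siE3, against 678 and 686 CPM with siC. With siE2 it fell to 50.4% of the control level (log2 -0.99, SE 0.0473, edgeR adjusted p = 3.2e-10), with siE1 by 0.16 (adjusted p = 0.01), and with siE3 it was at 0.01 (adjusted p = 0.9). The siE1 call was lost without the second siC library (0.054) or the second siE1 library (0.082).

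Among the remaining SLC38 members SLC38A7, a lysosomal glutamine and asparagine exporter, fell with siE2 and siE3, by 0.74 and 0.33 (edgeR adjusted p of 2e-05 and 0.015). The siE3 call was lost without the second siC library (0.12), without the first siE3 library (0.16) and in DESeq2 (0.051). SLC38A9, the lysosomal arginine sensor upstream of mTORC1, rose with siE1 by 0.43 (adjusted p = 0.0013), and SLC38A10 rose with siE2 by 0.56 (adjusted p = 6.4e-07). With the remaining siRNAs their values lay between -0.12 and 0.09 and missed the threshold.

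The mRNAs of both chains of LAT1, the light chain SLC7A5 and the heavy chain SLC3A2, were lower with siE3. SLC7A5, the large neutral amino acid exchanger itself, was at 435 and 384 CPM with siE1, 389 and 329.5 CPM with siE2, and 217 and 256 CPM with siE3, against 391 and 435 CPM with siC. Both siE3 libraries lay under every other library, while siE1 and siC overlapped. SLC7A5 fell to 57.2% of siC with siE3 (log2 -0.81, SE 0.0854, edgeR adjusted p = 2.3e-06). The log2 change was -0.01 with siE1 and -0.20 with siE2 (adjusted p of 0.91 and 0.053), and the siE2 value passed the threshold in 4 of the alternatives tried, with an adjusted p as low as 0.0014 when genes of low count were kept. The difference between siRNAs was itself called, at 0.79 for siE1 over siE3 and 0.60 for siE2 over siE3 (edgeR adjusted p of 2.2e-06 and 3.2e-05). The pseudogene SLC7A5P2, whose exon bases lie wholly within SMG1P3, was called with no siRNA (-0.90, 0.45 and 0.32), except with siE1 without the second siC library (adjusted p = 0.034), and reads of SLC7A5 and its pseudogenes may be split between them.

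SLC3A2, also called CD98hc or 4F2hc, is the shared heavy chain. It stood at 181 and 165 CPM with siE1, 192 and 169.9 CPM with siE2, and 136.5 and 150.4 CPM with siE3, against 170.1 and 187 CPM with siC. The siE3 libraries were again the lowest of the 8. It fell to 80.4% of siC with siE3 (SE 0.0689 on the log2 scale, edgeR adjusted p = 0.0018), and gave -0.05 and 0.02 with siE1 and siE2 (adjusted p of 0.59 and 0.82).

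Of the light chains that pair with SLC3A2, SLC7A11 was higher with siE2 and SLC7A6 lower with all siRNAs. SLC7A11, the cystine and glutamate exchanger xCT, was at 137 and 126.5 CPM with siE1, 201 and 169.7 CPM with siE2, and 127 and 171 CPM with siE3, against 129 and 131.5 CPM with siC. The log2 change was 0.51 with siE2 (SE 0.102, edgeR adjusted p = 0.00055), 0.01 with siE1 and 0.19 with siE3 (adjusted p of 0.92 and 0.15). The siE3 libraries lay on either side of the controls, and without the first of them the siE3 value was 0.39. With all libraries the siE3 value passed the threshold when genes of low count were kept.

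SLC7A6, or y+LAT2, an exchanger of cationic for neutral amino acids, was at 88.4 and 86.4 CPM with siE1, 84.3 and 79.6 CPM with siE2, and 77.4 and 85.9 CPM with siE3, against 101 and 103 CPM with siC. All 6 knockdown libraries were lower than both controls. It fell by 0.22, 0.31 and 0.32 on the log2 scale with siE1, siE2 and siE3 (SE 0.0568, 0.0571 and 0.0572, edgeR adjusted p of 0.0045, 0.00024 and 0.00037). SLC7A6OS lies on the opposite strand and shares 53% of the exon bases of SLC7A6, so reads of the pair cannot be told apart without the strand setting. SLC7A6OS was called with no siRNA, at 0.10, 0.07 and 0.03.

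SLC7A7, or y+LAT1, the close relative of SLC7A6, had 17 counts in each siE1 library, 14 and 12 in the siE2 libraries and 9 and 8 in the siE3 libraries, against 7 and 5 in the siC libraries. It passed the filter on low counts through siE1 and siE2, where it was higher, so its calls there (log2 1.40 and 1.07, edgeR adjusted p of 0.011 and 0.049) are partly fixed by that filter. The siE1 call was lost without the second siC library (0.1) or the first siE1 library (0.064) and in DESeq2 (0.12). The siE2 call was lost in 8 alternatives, among them each of the 4 fits without 1 of the siC or siE2 libraries, with an adjusted p of 0.055 to 0.26. With siE3 the value was 0.50 (adjusted p = 0.47).

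The exchanger SLC1A5, or ASCT2, the main glutamine carrier of many cancer cells, was higher with siE1 and lower with siE2. It stood at 369.7 and 363 CPM with siE1, 198 and 203 CPM with siE2, and 283 and 297 CPM with siE3, against 289 and 309 CPM with siC. The siE1 libraries were the highest and the siE2 libraries the lowest, and siE3 overlapped siC. The log2 changes were 0.29 with siE1 (SE 0.0452, edgeR adjusted p = 7e-05), -0.57 with siE2 (SE 0.0460, adjusted p = 5.9e-08) and -0.05 with siE3 (adjusted p = 0.46). Between the siRNAs, siE1 over siE2 differed by 0.87 (SE 0.0459, adjusted p = 5.9e-10). An opposite-strand gene covers 23.4% of its exon bases. The related exchanger SLC1A4 (ASCT1) was called with no siRNA, at -0.06, 0.13 and -0.13, nor was the glutamate carrier SLC1A3, at 0.14, -0.18 and -0.06. SLC1A1, a glutamate and aspartate carrier, had 1.85 and 2.66 CPM with siE1, 2.68 and 3.32 CPM with siE2, and 2.33 and 2.25 CPM with siE3, against 4.56 and 3.34 CPM with siC. SLC1A1 fell with siE1 and siE3, by 0.79 and 0.78 on the log2 scale (edgeR adjusted p of 0.0072 and 0.0099), and gave -0.39 with siE2 (adjusted p = 0.12). Each of these depends on single libraries. The siE1 call was lost without the first siC library (0.096) or the first siE1 library (0.076), the siE3 call without the first siC library (0.12) or the second siE3 library (0.051), and the siE2 value passed without the second siC library (0.045).

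**Figure D3:**
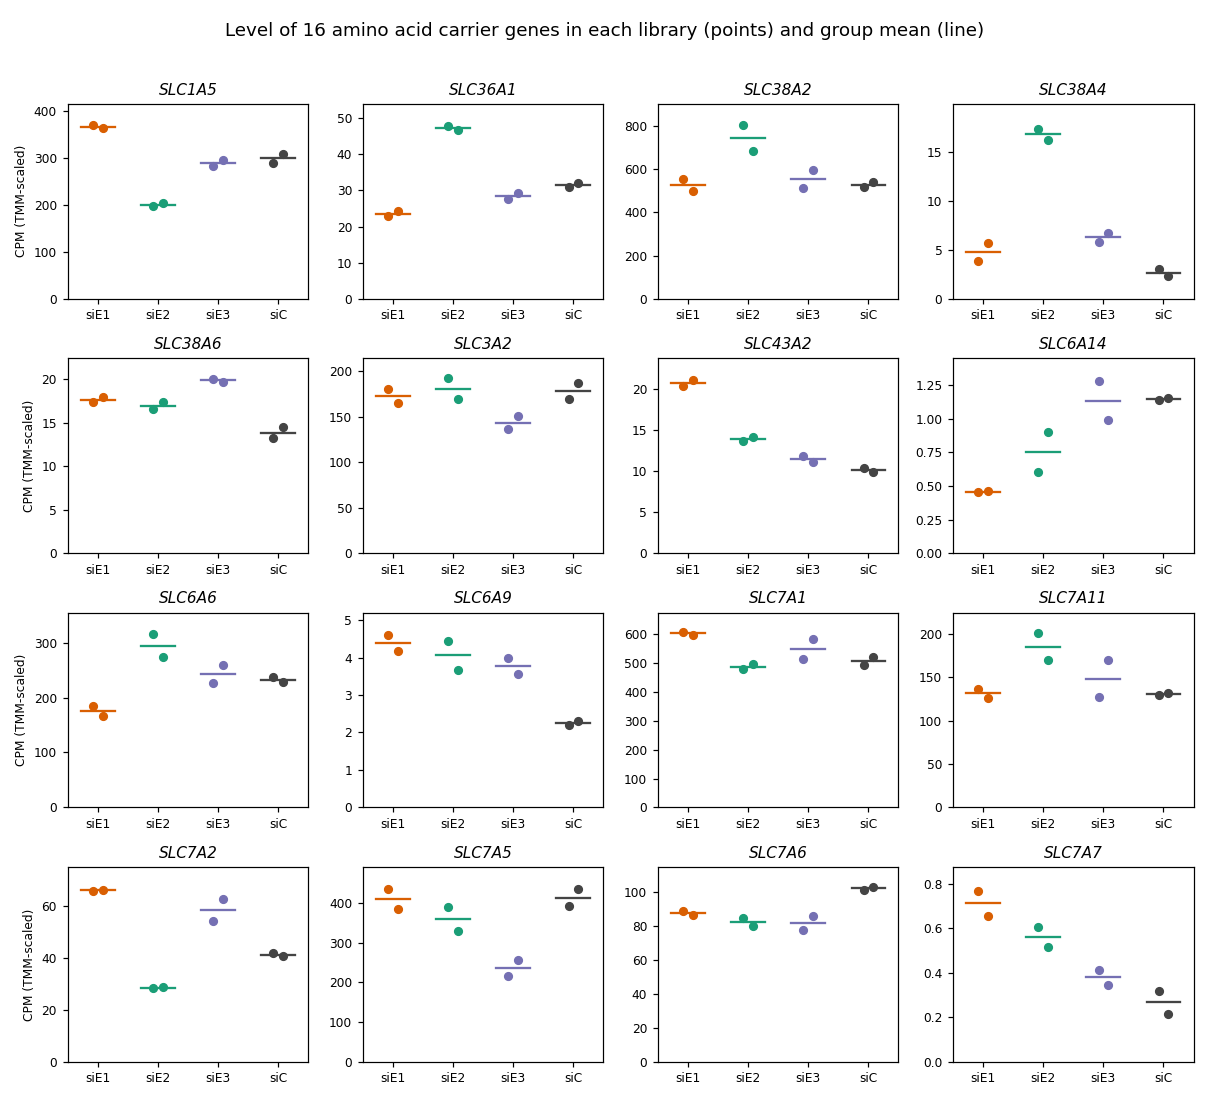
CPM of each of 16 carriers in every library, by siRNA (points, 2 libraries each; line, mean; axes from 0). SLC38A4 stands at 17.4 and 16.2 CPM in siE2 cells, and SLC7A5 at 217 and 256 CPM in siE3 cells, apart from the other groups.

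The cationic amino acid carriers bring arginine, lysine and ornithine into the cell. SLC7A1, or CAT1, the widely expressed member, was at 607 and 598 CPM with siE1, 478 and 495 CPM with siE2, and 515 and 584 CPM with siE3, against 492.5 and 521 CPM with siC. Only the siE1 libraries stood clear above the rest, and SLC7A1 rose with siE1 by 0.25 (SE 0.0531, edgeR adjusted p = 0.0011). With siE2 and siE3 the values were -0.06 and 0.12 (edgeR adjusted p of 0.37 and 0.093). The siE3 value was 0.20 without the first siE3 library, and with all libraries it passed the threshold when genes of low count were kept.

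SLC7A2, or CAT2, the cationic carrier known to be induced in activated macrophages, was higher with siE1 and siE3 and lower with siE2. Its level was 65.6 and 66.2 CPM with siE1, 28.2 and 28.6 CPM with siE2, and 54.1 and 62.7 CPM with siE3, against 41.8 and 40.6 CPM with siC. The siE1 and siE3 libraries all lay above the controls and both siE2 libraries under them. It rose by 0.68 with siE1 and 0.50 with siE3 (SE 0.0689 and 0.0697, edgeR adjusted p of 1e-06 and 3.3e-05) and fell by 0.54 with siE2 (SE 0.0745, adjusted p = 1.9e-05). The average over the siRNAs was 0.22 (edgeR adjusted p = 0.0061, and 0.073 without the second siC library), a value that stands for none of them.

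SLC43 and SLC36 carriers followed separate courses. SLC43A2, or LAT4, a facilitative carrier of branched-chain and aromatic amino acids, was at 20.4 and 21.0 CPM with siE1, 13.6 and 14.15 CPM with siE2, and 11.8 and 11.1 CPM with siE3, against 10.4 and 9.86 CPM with siC. All 6 knockdown libraries lay above both controls, and siE1 was the highest. It rose by 1.03 with siE1 and 0.46 with siE2 (SE 0.0926 and 0.0974, edgeR adjusted p of 2.6e-07 and 0.00093), with 0.18 for siE3 (adjusted p = 0.17). SLC43A3 fell with siE2 and siE3 by 0.42 and 0.23 (edgeR adjusted p of 1.8e-06 and 0.001). With siE1 it gave 0.11 (adjusted p = 0.052), both libraries lying above the controls. The siE1 value was called higher, opposite to siE2 and siE3, with the size factors of DESeq2 or with only the groups compared. SLC43A1, or LAT3, was called with none (0.11, 0.09 and 0.22). Its siE3 value (adjusted p = 0.052) passed with genes of low count kept or with only the groups compared.

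SLC36A1, or PAT1, a proton-coupled carrier of small amino acids that also works at the lysosome, was at 22.9 and 24.2 CPM with siE1, 47.9 and 46.9 CPM with siE2, and 27.6 and 29.3 CPM with siE3, against 30.9 and 32.1 CPM with siC. siE2 stood above all other libraries and siE1 under them. The log2 change was -0.42 with siE1 (SE 0.0706, edgeR adjusted p = 0.00016), 0.59 with siE2 (SE 0.0661, adjusted p = 2.1e-06) and -0.15 with siE3 (adjusted p = 0.11). SLC36A4 fell with siE2 and siE3, by 0.41 and 0.27 (adjusted p of 0.00022 and 0.0068), the siE3 call being lost without the first siE3 library (0.079).

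Among the sodium- and chloride-coupled SLC6 carriers SLC6A9, or GlyT1, the glycine carrier, was higher with each siRNA. It was at 4.61 and 4.17 CPM with siE1, 4.45 and 3.67 CPM with siE2, and 3.98 and 3.55 CPM with siE3, against 2.19 and 2.31 CPM with siC. The lowest knockdown library lay above the higher control. It rose by 0.96, 0.85 and 0.74 on the log2 scale (SE 0.180, 0.183 and 0.186, edgeR adjusted p of 0.0004, 0.001 and 0.0049). No siRNA differed from another in the test (0.11, 0.22 and 0.11 for siE1 over siE2, siE1 over siE3 and siE2 over siE3, adjusted p of 0.59, 0.29 and 0.61).

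SLC6A6, or TauT, the taurine carrier, was at 184 and 167 CPM with siE1, 315 and 274 CPM with siE2, and 226 and 258.5 CPM with siE3, against 238 and 228 CPM with siC. It was lowest with siE1 and highest with siE2, with the controls between the siE3 libraries. The log2 changes were -0.41 with siE1 (SE 0.0714, edgeR adjusted p = 0.00021), 0.34 with siE2 (SE 0.0704, adjusted p = 0.00072) and 0.06 with siE3 (adjusted p = 0.54). SLC6A8, the creatine carrier, had 8.36 and 8.84 CPM with siE1, 3.85 and 4.23 CPM with siE2, and 4.53 and 4.15 CPM with siE3, against 4.75 and 4.33 CPM with siC. SLC6A8 rose with siE1, by 0.92 (edgeR adjusted p = 3.6e-05), and gave -0.17 and -0.06 with siE2 and siE3, which missed the threshold.

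SLC6A14, or ATB0,+, a concentrating carrier of neutral and cationic amino acids, was barely detected, at 0.452 and 0.463 CPM with siE1, 0.605 and 0.906 CPM with siE2, and 1.28 and 0.995 CPM with siE3, against 1.14 and 1.16 CPM with siC. The siE1 libraries were the lowest. With siE1 it fell by 1.32 (SE 0.340, edgeR adjusted p = 0.0045), and with siE2 and siE3 the values were -0.60 and -0.02 (adjusted p of 0.11 and 0.97).

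**Figure D4:**
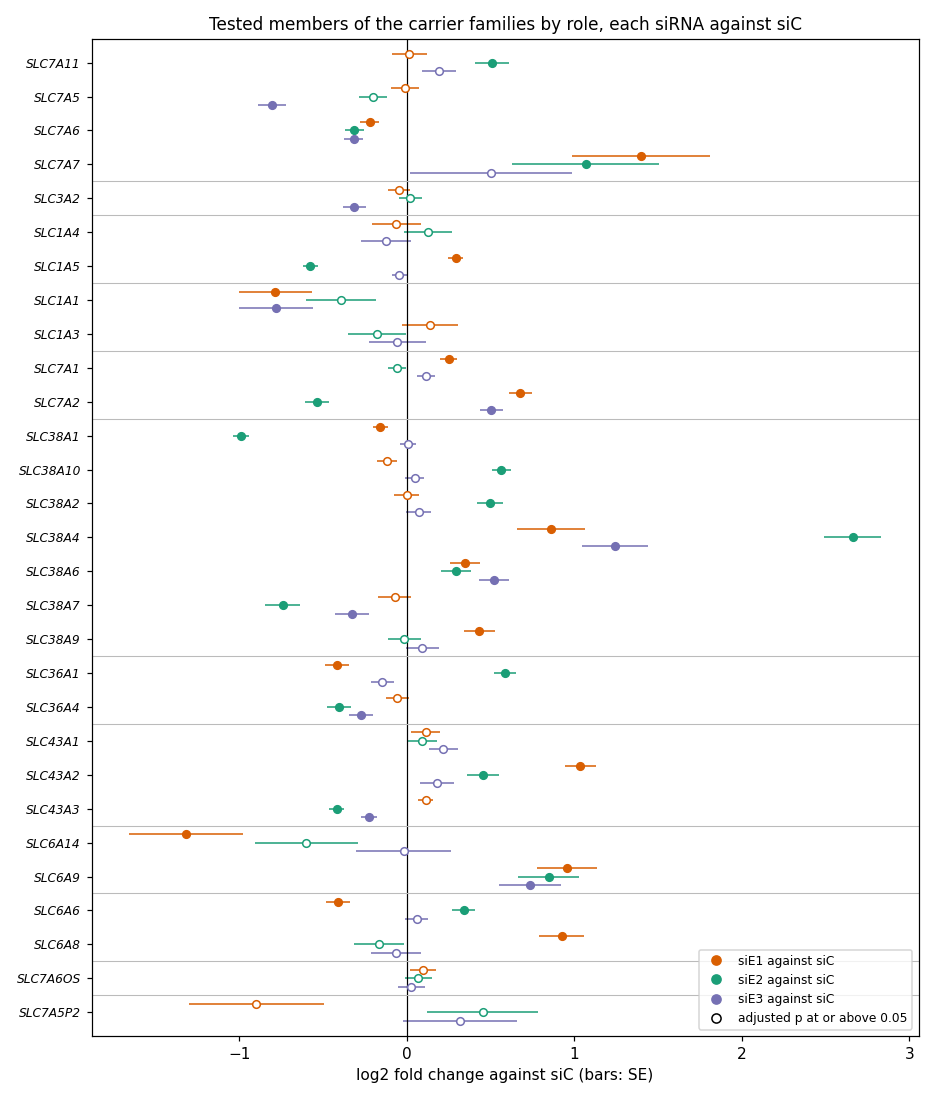
Log2 fold change of the tested members against siC with siE1, siE2 and siE3, grouped by role (bars, SE; filled, adjusted p under 0.05 in edgeR; open, at or above it). SLC7A2 is at 0.68, -0.54 and 0.50, and SLC38A4 at 0.86, 2.66 and 1.24.

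Set against each other, the siRNAs differed in 16 or 17 of the 29 tested members, the pseudogene SLC7A5P2 included for siE1 over siE2 and siE1 over siE3. For siE1 over siE2, 17 of 29 members were called, 10 higher and 7 lower, where 57.1% of all genes were called (28.5% higher and 28.6% lower). For siE1 over siE3 there were 16, 10 higher and 6 lower, against 48.7% of genes (23.3% higher and 25.4% lower), and for siE2 over siE3 also 16, 9 higher and 7 lower, against 48.5% (23.4% higher and 25% lower). With a fold of at least 1.5 required as well, 10 members (34.5%) were called for siE1 over siE2, where 19.1% of all genes were. The other pairs had 5 members each (17.2%), where 13.6% (siE1 over siE3) and 12.6% (siE2 over siE3) of all genes passed. The same limit left 8 members with siE1, 6 with siE2, 4 with siE3 and 5 in the average against siC. These are 27.6%, 20.7%, 13.8% and 17.2% of the tested members, where 14.7%, 18%, 9.97% and 9.53% of all genes passed it. SLC7A7 is among those with siE1, with siE2 and in the average. Ordered by library rather than by test, all 6 knockdown libraries lay above both siC libraries for 5 members (SLC38A4, SLC38A6, SLC43A2, SLC6A9 and SLC7A7, the last of which passed the filter through siE1 and siE2, 15.1% of all genes) and under both for 3 (SLC1A1, SLC36A4 and SLC7A6, 15.4%). In the authors' deposited table, 12, 15 and 10 of the 29 members had an adjusted p under 0.05 with siE1, siE2 and siE3, and each was also called here with the same sign. Not all calls made here were in it. SLC38A4 with siE1 and SLC38A6 with siE2 missed the threshold there (authors' adjusted p of 0.0702 and 0.0817). So did SLC1A1, SLC6A14 and SLC7A7 with siE1 (authors' adjusted p of 0.0831, 0.051 and 0.134). SLC7A7 with siE2 and SLC38A7 with siE3 also missed it (authors' adjusted p of 0.381 and 0.0581). Of the members higher with each siRNA here, only SLC6A9 passed with all 3 in the authors' values.

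The genes that use or sense the carried amino acids were counted in the average of the 3 siRNAs, in which the median log2 change of all genes was -0.01 and 23.4% of all genes were called higher and 27.7% lower. Of 17 genes of branched-chain amino acid breakdown, all tested, 2 were higher and 11 lower, with a median of -0.23. They include HIBADH at -0.54, PPM1K (the phosphatase that switches on the branched-chain ketoacid dehydrogenase) at -0.72, MCCC2 at -0.35 and DLD at -0.23 (edgeR adjusted p of 4.9e-08, 4.9e-07, 2e-05 and 7.2e-05). HIBADH averaged 89.5 CPM with siE1, 38.4 CPM with siE2 and 98.4 CPM with siE3, against 101 CPM with siC, so its average rests largely on siE2. By siRNA, 11 members were lower and 0 higher with siE1 (25.8% and 24.5% of all genes). With siE2, 9 were lower and 5 higher (28.5% and 27.9%), and siE3 had 7 lower and 1 higher (20.8% and 21.3%).

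Of 23 tested genes of the ATF4 and amino acid shortage response, 5 were higher and 7 lower in the average (median -0.10), or 21.7% and 30.4%, close to the 23.4% and 27.7% of all genes. DDIT4, an inhibitor of mTORC1, rose by 1.34 and CEBPB by 0.53, whereas ALDH18A1, the first enzyme of proline synthesis, and SHMT2, the mitochondrial serine hydroxymethyltransferase, fell by 0.54 and 0.23 (edgeR adjusted p of 4e-06, 1.8e-06, 4.1e-08 and 0.00011). ASNS, the asparagine synthetase and a standard ATF4 target, fell with siE1 and siE2 by 0.37 and 0.33 and rose with siE3 by 0.30 (edgeR adjusted p of 0.0082, 0.014 and 0.024). Glutamine, glutamate and aspartate enzymes (15 tested) gave 1 higher and 4 lower. The mitochondrial aspartate aminotransferase GOT2 was at -0.44 and PPAT, the first committed enzyme of purine synthesis, at -0.46 (edgeR adjusted p of 6.6e-08 and 4.3e-06). PPAT fell by 0.85 with siE2 and 0.425 with siE3, and gave -0.11 with siE1 (edgeR adjusted p of 6.6e-08, 0.00012 and 0.19). Of 19 polyamine, arginine and proline genes 5 were higher and 8 lower, led by ODC1, the first enzyme of polyamine synthesis, at -0.73 and its activator AZIN1 at -0.62 (edgeR adjusted p of 5.3e-10 and 1.9e-09).

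Against the same 23.4% higher and 27.7% lower of all genes, amino acid sensing to mTORC1 (35 tested) had 6 higher and 10 lower, with FLCN at 0.57 and RRAGA at 0.33 among the higher (edgeR adjusted p of 4.1e-08 and 1.3e-05). The glutathione list (14 tested), which also holds the thioredoxin reductase TXNRD1, had 5 higher and 4 lower, with TXNRD1 at 0.61 and GGCT at -0.72. The higher ones include GGT5, at a mean of 0.197 CPM with siC and 0.756 CPM with siE2. GGT5 passed the filter on low counts through knockdown libraries, so its call is partly fixed by that filter. GGCT averaged 88.9 CPM with siE1, 27.6 CPM with siE2 and 62.7 CPM with siE3, against 88.3 CPM with siC, so its average rests largely on siE2. Other carriers of amino acids and peptides (9 tested) had 3 in each direction, with the lysosomal SLC17A5 at 0.87 and SLC16A10, a carrier of aromatic amino acids, at -0.78. Genes of carrier partners and control (15 tested) had 5 in each direction, with the ubiquitin ligases NEDD4 and NEDD4L, known to act on membrane carriers, at 0.50 and 0.23. The medians of these 4 lists were -0.03, -0.00, 0.01 and -0.00.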

How the data were processed

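RNA-seq of 8 MDA-MB-231 libraries was analysed, grouped by the sample titles. Reads were processed with TopHat 1.3.3, HTSeq and DESeq on hg19, per the submitters' processing notes. For annotation, strand setting and filters: not given in the sources used here. The authors' deposited table holds raw counts per gene symbol. It also holds, per the file headers, a fold for each siRNA against siC and an adjusted p-value, used only to compare calls.

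The filter filterByExpr of edgeR 4.0.16 (R 4.3.3) kept 13395 of 23368 symbols. TMM factors were 0.980 to 1.02. The quasi-likelihood test was fitted over all 8 libraries with 1 mean per group (4 residual degrees of freedom, common dispersion 0.00166, biological coefficient of variation 4.08%), with Benjamini-Hochberg adjustment in each of 7 contrasts and a threshold of 0.05. The script was tested on simulated data. Fold changes are log2 values, SE being the fold change over the root of F, and levels are CPM scaled by TMM. No pair of libraries agreed within sampling noise (chi-square per degree of freedom 3.11 to 5.12 within groups and 40.6 to 75.1 between).

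The members, the neighbouring lists and the marker genes were chosen with earlier results of these data known. Values in every library were given for members called the same way by all 3 siRNAs, called in opposite directions, or called with a log2 change of at least 1, and for SLC7A5, SLC3A2, SLC7A11, SLC1A5, SLC38A2 and SLC7A1. SLC38A1, SLC1A1 and SLC6A8 were added after their values were seen. Of each neighbouring list, named genes are among the 4 with the smallest p in the average, with ASNS and GGT5 added after their values were seen. Alternatives were DESeq2 1.42.0, its size factors, no filter, only the groups compared, leaving out each library, a fold limit of 1.5 and a replicate block. Motifs were searched in RefSeq windows. Figures were drawn with matplotlib 3.10.9 in Python 3.11.15. Some results on the neighbouring lists are not reported here.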

Additional observations from a re-analysis of the deposited data

Results flagged for a closer look

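In 4 carriers the siRNAs changed the level in opposite directions against siC, and the difference between the siRNAs was itself past the threshold of the edgeR quasi-likelihood test. SLC1A5 was higher with siE1 and lower with siE2, a difference of 0.87 on the log2 scale for siE1 over siE2 (SE 0.0459, adjusted p = 5.9e-10). SLC7A2 was higher with siE1 and lower with siE2, with a difference of 1.21 (SE 0.0716, adjusted p = 2e-09). It was also lower with siE2 and higher with siE3, and siE2 over siE3 gave -1.04 (SE 0.0724, adjusted p = 2.1e-08). SLC36A1 was lower with siE1 and higher with siE2, a difference of -1.005 (SE 0.0679, adjusted p = 8.1e-09). SLC6A6 had the same order, at -0.75 (SE 0.0711, adjusted p = 3.4e-07). Both libraries of each siRNA lay on the side of siC that the test gave.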

How the results depend on the processing

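With a fold limit of 1.5 the counts of members called were 8 with siE1, 6 with siE2, 4 with siE3 and 5 in the average, 10 for siE1 over siE2 and 5 for each of the other pairs, while 0 members were lower with all 3 siRNAs and 0 were called in opposite directions. DESeq2 called 10 for siE1 over siE3. Leaving out each library gave 14 to 15 with siE1, 15 to 17 with siE2, 10 to 11 with siE3 and 11 to 19 in the average (11 without the second siC library). The pairs of siRNAs gave 16 to 19 for siE1 over siE2, 10 to 14 for siE1 over siE3 (10 without the first siE1 library) and 11 to 14 for siE2 over siE3. Members higher with all 3 siRNAs numbered 2 to 3, lower 1 to 2 (2 without the second siC library) and opposite 4 to 5. The cause of these shifts was not tested. The replicate numbers did not pair the libraries (correlations of same-numbered deviations of -0.235 to 0.182), and the replicate block gave 16, 16, 11 and 17 members for siE1, siE2, siE3 and the average. The remaining counts kept within 1.5 times of those reported. Of 1130 recomputed values of the 29 members, 1055 kept their side of the threshold, 53 lost and 22 gained a call, and none changed sign while called. For members near 1 CPM or under, counting error limits what could be detected.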

Other observations

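Libraries of the same siRNA differed together in a set of 4 carriers, named after their values were seen. SLC7A5, SLC3A2, SLC38A2 and SLC7A11 were all higher in the first than in the second library with siE1 (log2 ratios of 0.18, 0.13, 0.15 and 0.12) and with siE2 (0.24, 0.18, 0.24 and 0.24). With siE3 all were lower in the first library (-0.24, -0.14, -0.21 and -0.43), as with siC (-0.15, -0.14, -0.07 and -0.03). The same signs were seen in SLC7A6, SLC43A3, SLC38A7 and SLC1A3, so the pattern is not particular to the set. SLC7A6 gave 0.03, 0.08, -0.15 and -0.03, and SLC38A7 0.03, 0.03, -0.25 and -0.12, for siE1, siE2, siE3 and siC. SLC1A5 differed by 0.03, -0.04, -0.07 and -0.10 in the same order. Over all tested genes, the deviations of the first libraries from their group means were correlated between groups. The correlation was 0.182 for siE1 with siE2 and 0.105 for siC with siE3, and -0.172 to -0.235 for the other pairs.

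With genes of low count kept, a pair of SLC6 carriers was called higher with siE1. SLC6A13, a GABA carrier, had 13 counts in the first siE1 library (log2 1.87, edgeR adjusted p = 0.044), and SLC6A16, an orphan member, gave 2.32 (adjusted p = 0.044). Fitted values at such counts depend on the prior count.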
